A study of Homo sapiens with 8 samples.

Results

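The PRL phosphatases are PTP4A1, PTP4A2 and PTP4A3, the 3 human phosphatases of regenerating liver, also called PRL-1, PRL-2 and PRL-3. They were taken because pentamidine has been reported to act on these proteins, and all probe sets that the array annotation gives to 1 of the 3 symbols were included. They are 3 of 17014 annotated genes on the arrays and are covered by 11 of 22277 probe sets of the first array type. No probe set of the second array type carries any of the 3 symbols, and none on either type outside the 11 carries a RefSeq transcript accession of these genes. Most of the 11 themselves carry accessions of other kinds, so that search could miss further probe sets and does not show that coverage is complete.

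RNA came from 786-O, an established line of VHL-deficient clear cell renal carcinoma, kept for 6 h with 25 µM pentamidine or with the vehicle DMSO alone. Each array type carried 2 pentamidine arrays and 2 DMSO arrays, which the labels call biological duplicates. In the titles, the replicate numbers of the first type recur on the second with a b added. The titles do not tell whether such a pair shared an RNA preparation. Results on the 2 types are therefore not to be read as independent experiments. The values are deposited probe set intensities on a linear scale, with array medians from 75.6 to 88.2 units on the first type. One cell line, one concentration and one time point were measured, and the arrays measured RNA, not phosphatase protein or activity.

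PRL phosphatases are small protein tyrosine phosphatases that end in a CAAX box, the signal for attachment of a prenyl lipid, which holds them at the plasma membrane and at endosomes. They bind the cyclin M (CNNM) magnesium transport proteins, and their levels have been linked to growth and spread of tumour cells, most of all for PTP4A3 in colorectal cancer metastasis. Pentamidine is a diamidine drug given against trypanosomes, Leishmania and Pneumocystis.

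Transcripts of PTP4A1 and PTP4A2 gave bright signals in 786-O cells under both conditions, and those of PTP4A3 did not rise above the dim end of the array. All 8 probe sets of PTP4A1 and PTP4A2 lay at or above the 91.4th percentile of mean level among probe sets of the first type, between 1881 and 9611 units over the 4 arrays. The 3 probe sets of PTP4A3 lay between the 17.8th and the 36.1th percentile, at 1.88 to 37.0 units, below the median of every array. The brightness of a probe set depends on its probes as well as on the transcript, so these positions do not rank the 3 genes against each other. None of the 9 member probe sets that passed the filter on low levels differed between pentamidine and DMSO by limma at a Benjamini-Hochberg adjusted p of 0.05, and 0% of all 15550 probe sets tested did. At an unadjusted p under 0.05, 0 of the 9 passed, against 747 of all probe sets tested, or 4.8%.

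**Figure D1:**
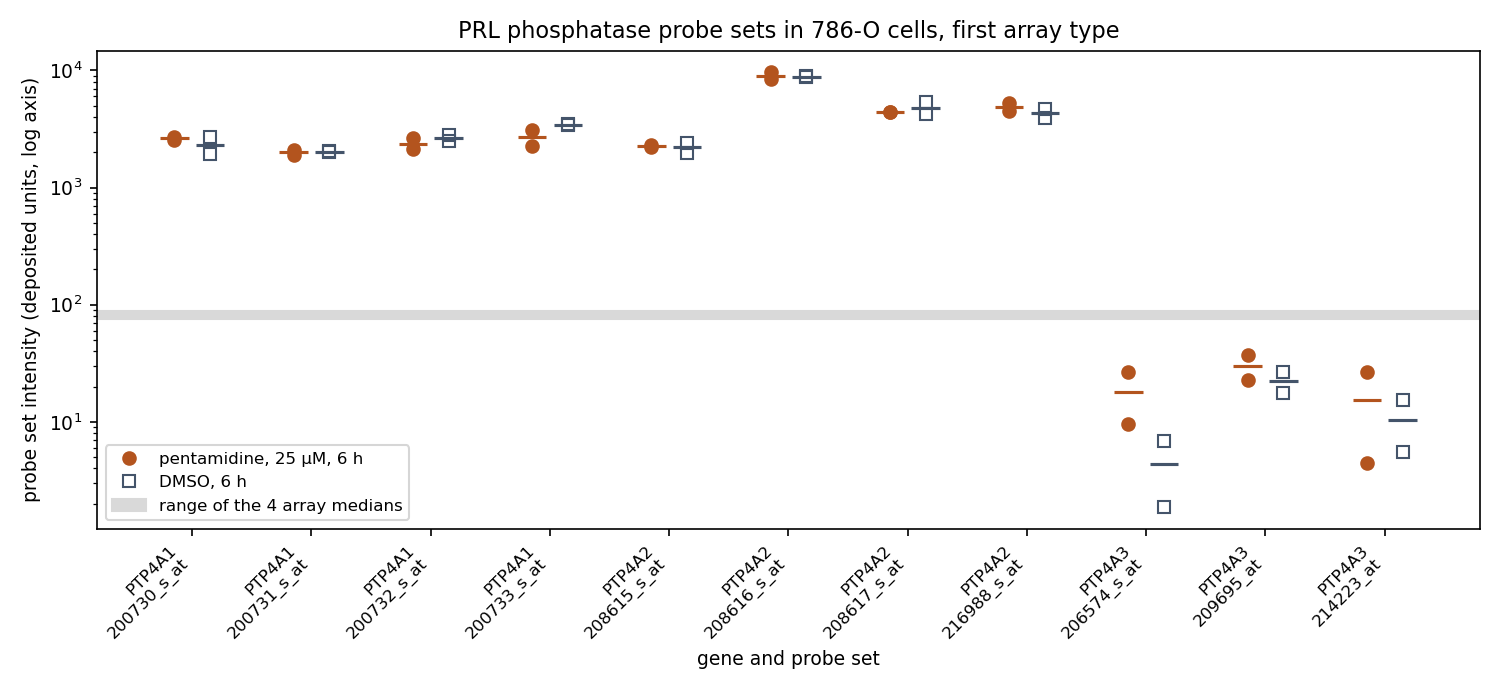
Intensity of each PTP4A1, PTP4A2 and PTP4A3 probe set on a log axis, with pentamidine arrays as filled circles, DMSO arrays as open squares and group means as bars (n = 2 arrays each). The PTP4A1 and PTP4A2 points lie far above the grey band of array medians and the PTP4A3 points below it.

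PTP4A1 encodes PRL-1, the founding member, first described as an immediate-early gene of regenerating rat liver. It is covered by 4 probe sets, of which 3 lay below DMSO and 1 above. Probe set 200733_s_at measured 2273 and 3129 units on the pentamidine arrays, against 3506 and 3390 units on the DMSO arrays. Both pentamidine arrays were lower than both DMSO arrays, but the 2 pentamidine arrays lay much farther from each other than the 2 DMSO arrays. The log2 fold change was -0.37 (95% interval -0.94 to 0.21, n = 2 arrays per group), or 0.775-fold, with an adjusted p of 0.926 by limma. Without pentamidine array 1, the lowest of the 4, it was -0.14.

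The other PTP4A1 probe sets did not share the separation. Probe set 200732_s_at measured 2629 and 2116 units on the pentamidine arrays, against 2794 and 2474 units on the DMSO arrays (log2 fold change -0.16, 95% interval -0.67 to 0.35). Probe set 200731_s_at measured 1881 and 2113 units on the pentamidine arrays, against 2051 and 2006 units on the DMSO arrays (log2 fold change -0.024, 95% interval -0.45 to 0.40). In both, the ranges of the conditions overlapped. Probe set 200730_s_at lay on the other side of 0, with 2558 and 2696 units on the pentamidine arrays, against 1924 and 2724 units on the DMSO arrays (log2 fold change 0.20, 95% interval -0.41 to 0.80). There the DMSO arrays spanned the pentamidine arrays, and without DMSO array 1, the low one, the value was -0.053.

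The 4 probe sets of PTP4A1 therefore gave log2 fold changes from -0.37 to 0.20, and whether the probe sets differ from each other in response was not tested. Averaged over the 4 probe sets, PTP4A1 was at 11.19 and 11.28 on the log2 scale on the pentamidine arrays, against 11.29 and 11.35 on the DMSO arrays. The averaged values did not overlap, but the nearest arrays of the 2 conditions were closer to each other than the arrays within either condition. How many averaged genes separate in this way was not counted. Among single probe sets above the median level, both pentamidine arrays were below both DMSO arrays in 19.3%. Fitted over 9120 genes averaged in the same way, the log2 fold change was -0.088 (95% interval -0.46 to 0.28, limma adjusted p = 0.945).

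PTP4A2 encodes PRL-2, the most widely expressed of the 3 in normal tissues, and it too is covered by 4 probe sets. The brightest, 208616_s_at, measured 9611 and 8458 units on the pentamidine arrays, against 8711 and 8893 units on the DMSO arrays (log2 fold change 0.035, 95% interval -0.40 to 0.47). One pentamidine array lay above both DMSO arrays and the other below both. Probe set 216988_s_at measured 5311 and 4480 units on the pentamidine arrays, against 3928 and 4655 units on the DMSO arrays, which gave the highest value of this gene (log2 fold change 0.19, 95% interval -0.32 to 0.69). Its ranges overlapped, since 1 pentamidine array lay under the higher DMSO array. Its value was 0.067 without pentamidine array 1 or without DMSO array 1, 0.31 without either of the other two arrays, and 0.092 after median centring.

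Of the remaining PTP4A2 probe sets, 208617_s_at measured 4433 and 4458 units on the pentamidine arrays, against 5338 and 4210 units on the DMSO arrays (log2 fold change -0.093, 95% interval -0.59 to 0.41). Probe set 208615_s_at measured 2293 and 2235 units on the pentamidine arrays, against 1977 and 2426 units on the DMSO arrays (log2 fold change 0.048, 95% interval -0.43 to 0.53). In both, the pentamidine arrays were close together and the DMSO arrays lay on either side of them. Averaged over the 4 probe sets, PTP4A2 was at 12.23 and 12.11 on the log2 scale on the pentamidine arrays, against 12.10 and 12.15 on the DMSO arrays. The log2 fold change of that average was 0.045 (95% interval -0.33 to 0.42, limma adjusted p = 0.971).

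**Figure D2:**
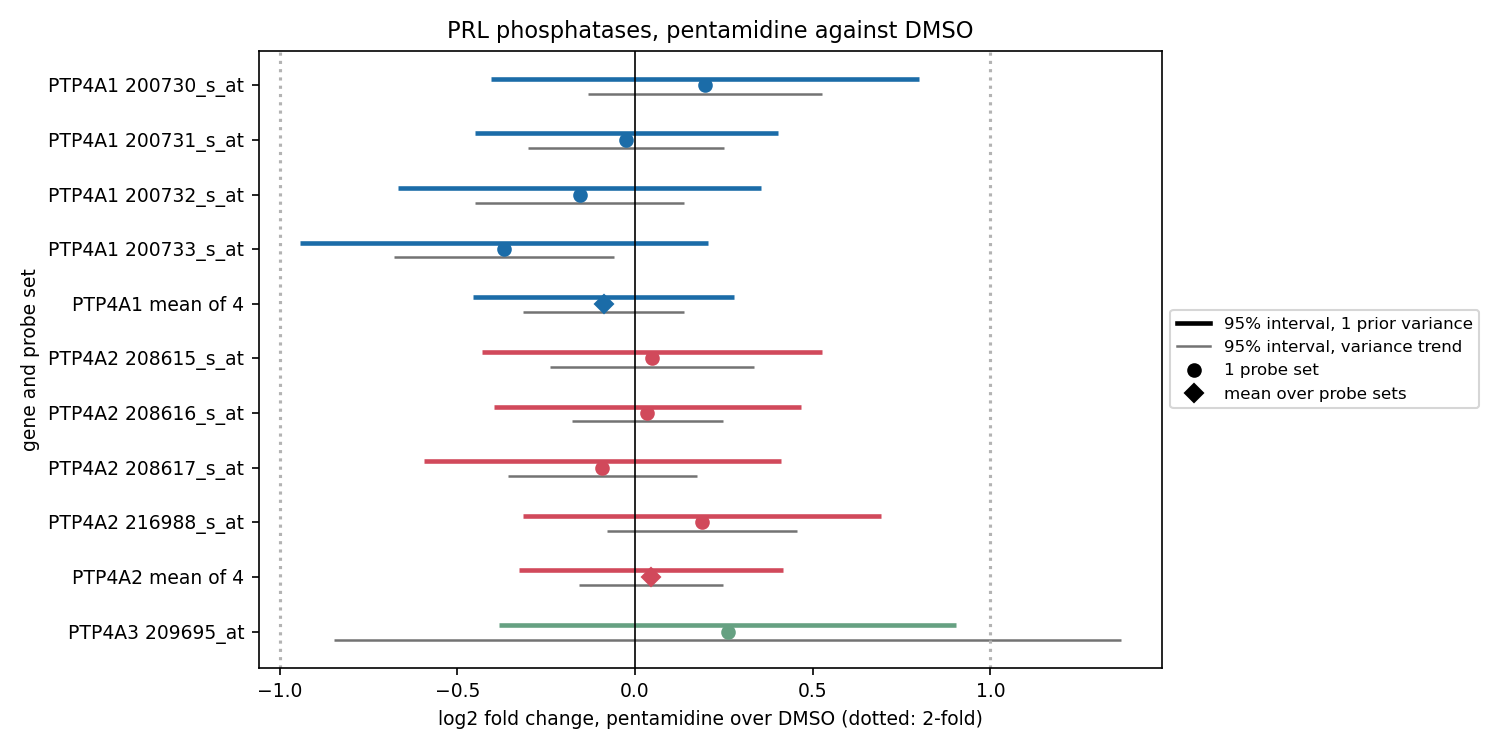
Log2 fold change of pentamidine over DMSO for the 9 tested probe sets and for the mean over the probe sets of PTP4A1 and PTP4A2, with 95% intervals from limma with 1 prior variance (coloured) and with a variance trend (grey), n = 2 arrays per group. The points lie between -0.37 and 0.26, and all coloured intervals include 0 and lie inside the dotted lines at 2-fold.

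PTP4A3 encodes PRL-3 and is covered by 3 probe sets, of which 1 passed the filter on low levels, the 30th percentile of mean level, equal to 18.3 units. That one, 209695_at, measured 22.8 and 37.0 units on the pentamidine arrays, against 26.5 and 17.7 units on the DMSO arrays. The ranges overlapped (log2 fold change 0.26, 95% interval -0.38 to 0.90, limma adjusted p = 0.929). At this level the value depends on the offset of 16 added before the log, and it was 0.41 with an offset of 1 and 0.12 with an offset of 64. Without pentamidine array 2, the highest, it was 0.034, without DMSO array 2 0.093, without pentamidine array 1 0.49 and without DMSO array 1 0.43, and it was 0.13 after quantile normalization and 0.16 after median centring.

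The 2 PTP4A3 probe sets under the filter were not tested. Probe set 206574_s_at measured 9.50 and 26.8 units on the pentamidine arrays, against 6.81 and 1.88 units on the DMSO arrays. Probe set 214223_at measured 4.44 and 26.5 units on the pentamidine arrays, against 15.3 and 5.51 units on the DMSO arrays. The first did not overlap between conditions, with pentamidine higher, and the second did. How often probe sets under the filter separate in this way was not counted. In all 3 PTP4A3 probe sets pentamidine array 2 was the highest of the 4 arrays. A signal this low gives no measure of whether PTP4A3 RNA is present in these cells.

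Over the 8 bright probe sets of PTP4A1 and PTP4A2, 4 lay below DMSO and 4 above, where 51.8% of the 7775 bright ones, those with a mean above the median, lay below. Both pentamidine arrays were below both DMSO arrays in 1 of the 8, while the same held for 19.3% of the bright probe sets. The reverse order was found in 0 of the 8, and 36% of the bright probe sets were separated in one direction or the other. In all 8, the difference between the condition means was smaller than the larger of the 2 gaps between arrays of 1 condition, as it was for 78.6% of the bright probe sets. Probe set 200733_s_at of PTP4A1 lay farthest from DMSO, and 7.13% of the bright probe sets lay at least as far. The next were 200730_s_at and 216988_s_at, with 28.5% and 30.05% at least as far.

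**Figure D3:**
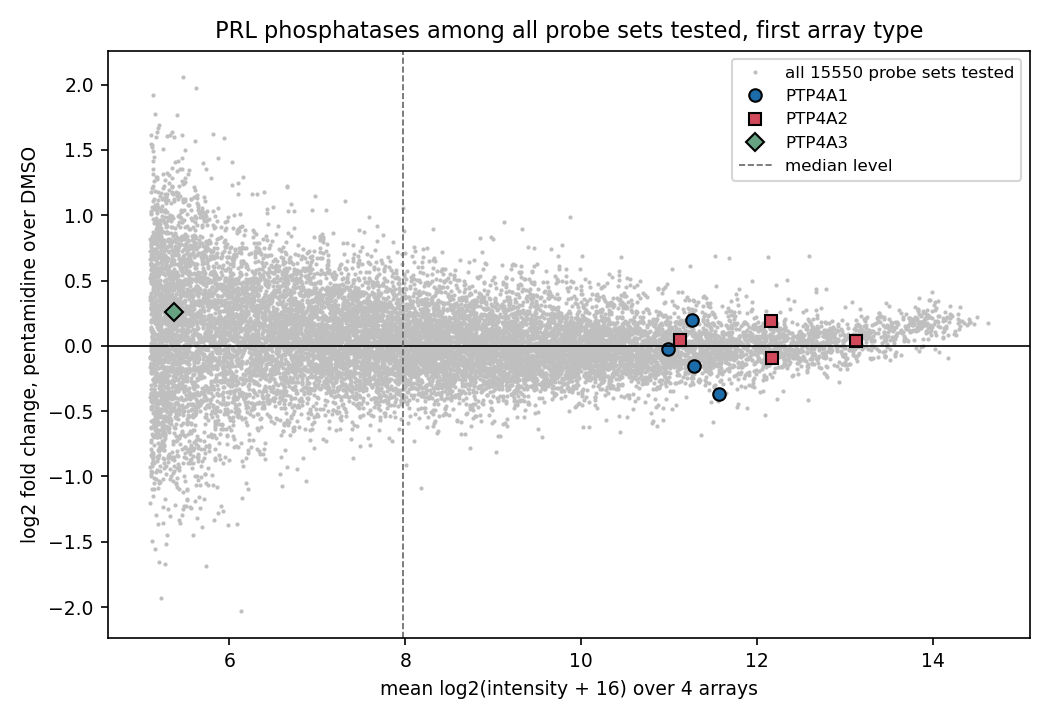
Log2 fold change of pentamidine over DMSO against mean level for the 15550 probe sets tested on the first array type (grey), with the members marked by gene and the median level as a dashed line. The PTP4A1 and PTP4A2 points lie at the bright end within the cloud, with 200733_s_at of PTP4A1 near its lower edge at -0.37, and the PTP4A3 point lies in the wide dim end.

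These intervals set how large a difference could have gone unseen. All 8 bright probe sets had a 95% interval inside a 2-fold change in either direction, as did 92.3% of all bright probe sets. In a limma fit that lets the variance follow the level, the intervals were narrower, and 7 of the 8 lay inside a 1.5-fold change, against 73% of all bright probe sets. The exception was 200733_s_at, with an interval of -0.68 to -0.06. In that fit its unadjusted p was 0.0234 and its adjusted p 0.888, while 5.13% of all probe sets had an unadjusted p under 0.05. Averaged over probe sets, the interval of that fit was -0.31 to 0.14 for PTP4A1 and -0.16 to 0.25 for PTP4A2. For 209695_at of PTP4A3 it widened to -0.85 to 1.37.

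**Figure D4:**
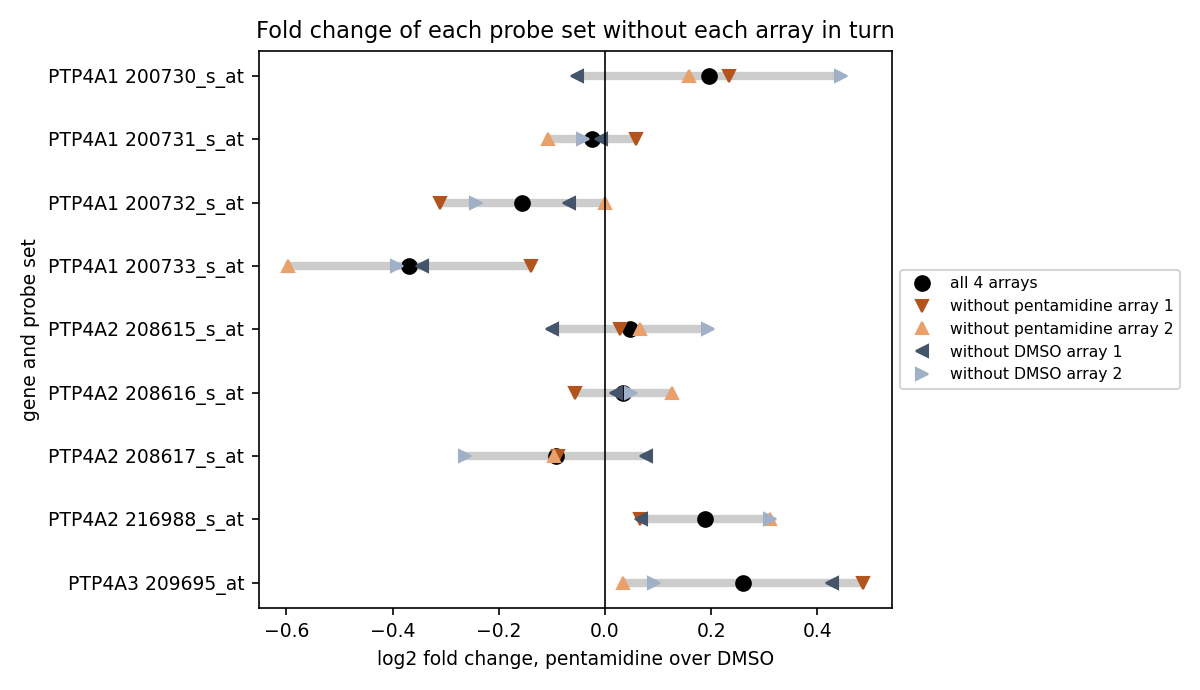
Log2 fold change of pentamidine over DMSO for each tested probe set with all 4 arrays (black) and without each array in turn (triangles); the grey bar spans the 4 values. The bar crosses 0 for 6 of the 9 probe sets and stays on the same side for 200733_s_at of PTP4A1, 216988_s_at of PTP4A2 and 209695_at of PTP4A3.

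Several features of the arrays bear on these values. The 8 bright probe sets carry the suffix of probe sets whose probes match more than 1 transcript, and RefSeq lists 7 pseudogenes of PTP4A1 and 2 of PTP4A2, whose part in the signal was not tested. The ratio of the 3' to the 5' control probe set of ACTB, a sign of RNA quality, was 1.10 to 1.11 on the pentamidine arrays, against 0.999 to 1.22 on the DMSO arrays. For GAPDH it was 0.824 to 0.908 on the pentamidine arrays, against 0.861 to 0.966 on the DMSO arrays, so that both ratios overlapped between conditions on the first type, which holds all the member probe sets. Of 10 genes of 786-O identity on the first type, 8 lay above the median level, among them PAX8, EPAS1 and VIM. The identity genes below that level were PAX2 and LHX1. Of the other markers, 0 of 3 leukocyte, 0 of 4 endothelial, 0 of 3 erythroid and 1 of 4 stromal ones lay above it. The stromal marker above it was LUM.

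The patterns over 4 arrays most like that of 200733_s_at of PTP4A1 were those of CCNA1, SYNC and ZDHHC17, by the root mean square difference of centred log2 values (0.015, 0.015 and 0.034). For 208616_s_at of PTP4A2 they were HLA-B, H2BC5 and MLLT11 (0.0079, 0.0086 and 0.0089), and for 209695_at of PTP4A3 they were ARSJ, MORF4L1 and MACIR (0.042, 0.078 and 0.083). With 4 arrays many genes share a pattern. Of 4973 genes compared with the PTP4A2 probe set, 1465 came within 0.1 on this scale, against 117 for the PTP4A1 probe set and 17 of 4974 for the PTP4A3 probe set.

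Genes that work with the PRL phosphatases were examined by list, with 1 probe set a gene. None of their members passed limma's adjusted p of 0.05 on either array type, where 0% of all probe sets did. A variance trend called 0.00633% of the second type's probe sets, none of them in these lists. At an unadjusted p under 0.05, 2 list genes passed on the first type, where 4.8% of all probe sets did. These were ARL15, 1 of 10 in the magnesium transport list, and PIK3R1, 1 of 10 in the list of downstream kinases and GTPases. The other lists, with 10, 7, 5 and 21 genes tested, gave 0. On the second type, where 7.04% of all probe sets passed, 0 did in lists of 9, 3, 1, 4, 2 and 9 genes tested. These names depend on the variance model: with a variance trend ARL15 had an unadjusted p of 0.212, and those under 0.05 were PIK3R1 (0.0305) and PCBP1 (0.0135), while the limma adjusted p was 0.888 for each of the 3. Over the probe sets tested, pairs of arrays correlated at 0.82 to 0.86 on the second type, against 0.97 to 0.98 on the first. On the second type, both control ratios were lower on the pentamidine arrays. The ACTB ratio was 1.23 and 1.21 on the pentamidine arrays, against 1.47 and 1.27 on the DMSO arrays, and the GAPDH ratio was 0.716 and 0.677 on the pentamidine arrays, against 0.843 and 0.806 on the DMSO arrays. Neither ratio overlapped between conditions there, but with 2 arrays against 2 an exact 2-sided test of either can reach only 0.333. Whether RNA quality differed by treatment, and the part of these ratios in the second type's list values, was not tested. The cyclin M proteins, which PRL phosphatases bind, and other genes of magnesium transport lay above DMSO in 8 of 10 on the first type, with a median log2 fold change of 0.27. On the second type neither a cyclin M gene nor ARL15 was tested. Of the magnesium transport genes tested there, 7 of 9 lay below DMSO, with a median of -0.14, so the 2 medians cover largely different genes. Over all genes tested the medians were 0.00 and -0.01. CNNM3 measured 93.0 and 84.6 units on the pentamidine arrays, against 68.5 and 22.0 units on the DMSO arrays (log2 fold change 0.89, 95% interval -0.23 to 2.00). That value rests on DMSO array 2, the lowest of the 4, and was 0.31 without it. CNNM2 had 0.31 and CNNM4 0.40. ARL15, a small GTPase that acts on the cyclin M proteins, measured 61.1 and 46.5 units on the pentamidine arrays, against 30.6 and 32.5 units on the DMSO arrays (log2 fold change 0.55, 95% interval 0.06 to 1.03). Letting the variance follow the level widened ARL15's interval to -0.35 to 1.44. In CNNM2, CNNM3, CNNM4 and ARL15 both pentamidine arrays lay above both DMSO arrays, as in 19.4% of all probe sets tested on the first type. In MRS2 and TUSC3 of the same list both pentamidine arrays lay below both DMSO arrays, with log2 fold changes of -0.25 and -0.083, as in 15.7% of all probe sets. CNNM1 overlapped at 0.072, and its value was -0.032 with an offset of 1 and -0.078 after quantile normalization.

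CNNM2, CNNM3, CNNM4 and ARL15 were all below the median level, where values depend on the offset. With an offset of 64 they had 0.19, 0.52, 0.21 and 0.30, and with an offset of 1 they had 0.39, 1.17, 0.54 and 0.74. Without pentamidine array 1, CNNM2 had 0.17 and CNNM4 0.17, and without DMSO array 2, CNNM2 had 0.17. Leaving out each array in turn gave 0.17 to 0.45 for CNNM2, 0.31 to 1.46 for CNNM3, 0.17 to 0.63 for CNNM4 and 0.39 to 0.70 for ARL15. In the dimmer probe sets of the first type as a whole, 59.6% lay above DMSO and the median was 0.08, and after quantile normalization these were 49.5% and -0.01. The list's median was 0.19 after quantile normalization, 0.02 without DMSO array 1 and 0.03 with a 50th percentile filter, which removes these genes. It was 0.14 without pentamidine array 1, 0.42 without pentamidine array 2, 0.29 without DMSO array 2 and 0.31 with an offset of 1. On the second type the ion channel kinase TRPM7 had a log2 fold change of -0.37 (95% interval -1.21 to 0.47), the mitochondrial magnesium channel MRS2 -0.44, the magnesium transporter NIPA1 0.27 and TUSC3, a subunit of the oligosaccharyltransferase complex, -1.42 (95% interval -5.06 to 2.22).

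Enzymes that add the prenyl lipid and process the CAAX box lay above DMSO in 3 of 10 on the first type, with a median log2 fold change of -0.07. FNTB, the catalytic subunit of farnesyltransferase, had 0.40, RABGGTA, a subunit of the enzyme that prenylates Rab proteins, -0.19, the CAAX protease RCE1 -0.11 and the methyltransferase ICMT -0.08. On the second type 1 of 3 lay above, with FNTB at 0.05 by another probe set, the shared alpha subunit FNTA at -0.11 and PGGT1B, the beta subunit of the type I enzyme that attaches the longer prenyl group, at -0.20. Reported substrates and binding partners lay above DMSO in 4 of 7 (median 0.00), with the membrane-cytoskeleton linker ezrin, EZR, at -0.18, keratin KRT8 at 0.11, the microtubule regulator STMN1 at -0.14 and integrin ITGB1 at 0.15. The 1 gene of that list on the second type, the transcription factor ATF5, had 0.61 (95% interval -2.11 to 3.32). By another probe set on the first type ATF5 had 0.03.

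Kinases and GTPases placed downstream of the PRL phosphatases lay above DMSO in 4 of 10 on the first type (median -0.05). PIK3R1, a regulatory subunit of PI3 kinase, measured 366 and 325 units on the pentamidine arrays, against 227 and 257 units on the DMSO arrays (log2 fold change 0.49, 95% interval 0.03 to 0.94, limma adjusted p = 0.926). The kinases AKT1 and MAPK3 had -0.37 and -0.32 and the GTPase RHOA 0.16. On the second type 3 of 4 lay above (median 0.30), with RHOA at 0.15, the adaptor BCAR1 at 0.51, the focal adhesion kinase PTK2 at 0.44 and RHOC at -1.33 (95% interval -3.40 to 0.74). By other probe sets on the first type, PTK2 had -0.06 and RHOC -0.07. Those probe sets ranked higher in mean level within their array type.

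Reported regulators of PTP4A genes lay above DMSO in 1 of 5 on the first type (median -0.02). PCBP1, an RNA-binding protein reported to hold back translation of PTP4A3, measured 1440 and 1774 units on the pentamidine arrays, against 2518 and 1902 units on the DMSO arrays (log2 fold change -0.45, 95% interval -1.05 to 0.15, limma adjusted p = 0.926). Both pentamidine arrays were lower than both DMSO arrays, as in 19.3% of the bright probe sets. With a variance trend the interval of PCBP1 was -0.79 to -0.11. STAT3 had 0.17 and SNAI1 -0.02. EGR1, reported to act on the PTP4A1 promoter, had -0.16 (95% interval -1.03 to 0.71) on the first type. Its probe set on the second gave -0.74 (95% interval -1.68 to 0.20). The other regulator tested there, STAT3, gave 0.06.

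Other phosphatases that share the cysteine-based mechanism lay above DMSO in 12 of 21 on the first type, with a median log2 fold change of 0.01 and values from -0.34 to 0.32. Those with the largest moderated t were DUSP14 at -0.34 (95% interval -0.87 to 0.18), the dual-specificity phosphatase DUSP3 at 0.25, CDC14A, of a family close to the PRL phosphatases in fold, at 0.24 and the receptor phosphatase PTPRF at -0.28. On the second type 2 of 9 lay above (median -0.06), with PTPN1 at -0.90 (95% interval -2.60 to 0.79) and PTPN9 at 0.87 (95% interval -1.68 to 3.42). PTPRK had -0.56 and PTPDC1 -0.37 there. By other probe sets on the first type, PTPN1 had 0.32, PTPN9 0.04 and PTPRK 0.15.

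**Figure D5:**
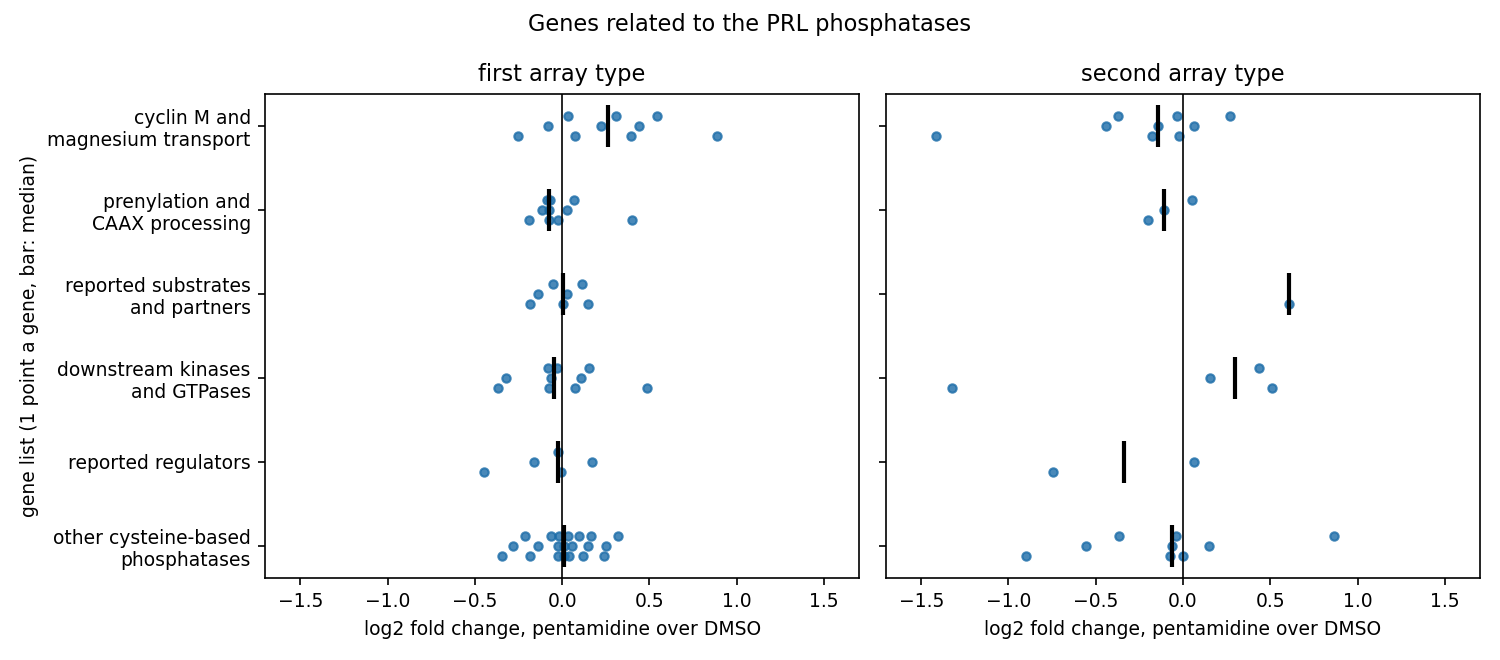
Log2 fold change of pentamidine over DMSO for genes of 6 lists related to the PRL phosphatases on the first (left) and second (right) array type, 1 point a gene with the list median as a bar. The list medians lie on both sides of 0. That of the cyclin M and magnesium transport list is 0.27 in the left panel and -0.14 in the right, where no cyclin M gene was tested.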

How the data were processed

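Total RNA was biotin-labelled and hybridised to Affymetrix arrays of 2 types, per the labels' protocols. The authors made the deposited intensity values, which are linear, with Expression Console from Affymetrix, as the submitters' processing notes record, its version, algorithm and any filter being not given in the sources used here. With 2% trimmed at either end, arrays averaged 500.2 deposited intensity units for the first type and 500.1 for the second.

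Symbols of 19713 and 13548 probe sets were updated by gene ID to RefSeq. Control probe sets were left out. An offset of 16 was added before log2, and those at or above the 30th percentile of mean log2 level, 15550 and 15804 probe sets, were fitted for pentamidine against DMSO, each type alone and with no block, by limma 3.58.1 (lmFit, eBayes; R 4.3.3). Fits were tested on simulated data. An exact 2-sided test of 1 value can reach only 0.333 here and was not run. Replicates are duplicates by label, and p-values measure only their spread.

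Members and lists were chosen with earlier results of these data known. Named were all members, up to 4 genes a list by absolute moderated t, and the 3 nearest patterns above the median level. The gene's brightest probe set stood for it. Alternatives were quantile normalization, median centring, other offsets and filters, a variance trend without and with a robust prior, a replicate block, averaging probe sets and leaving out each array.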

Additional observations from a re-analysis of the deposited data

How the results depend on the processing

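Of 119 values of the 9 tested member probe sets under alternatives, 0 passed an adjusted p of 0.05 by limma (lowest 0.643), and 45 of the 119 repeat the reported fold change by construction, as filters, variance models and the block leave it as it is. Of the 74 that could move, 64 kept their direction. Quantile normalization took 200731_s_at of PTP4A1 to 0.00046 and 208616_s_at of PTP4A2 to -0.037, and median centring took 208615_s_at and 208616_s_at of PTP4A2 to -0.050 and -0.063. Leaving out each array in turn gave -0.053 to 0.45 for 200730_s_at, -0.11 to 0.059 for 200731_s_at and -0.31 to 7.0e-05 for 200732_s_at of PTP4A1, and -0.099 to 0.19 for 208615_s_at, -0.057 to 0.13 for 208616_s_at and -0.26 to 0.078 for 208617_s_at of PTP4A2, while 200733_s_at gave -0.60 to -0.14, 216988_s_at 0.067 to 0.31 and 209695_at 0.034 to 0.49; the cause was not tested. On the first array type 0 probe sets were called by limma under each alternative run, with 747 at an unadjusted p under 0.05 in the fit as reported. On the second, which holds no member, the variance trend called 1 probe set and the trend with a robust prior 2. The replicate block cannot move a fold change in this balanced design (200733_s_at is -0.37 with it), and no call changed, with limma's adjusted p of that probe set at 0.960. Deviations of arrays with the same number correlated at 0.0037 and 0.013, so the values show no shared deviation by number. Whether arrays of the same number were handled together cannot be told from these correlations. The 50th percentile filter left no value for PTP4A3. Of 231 list medians, some of them also fixed by construction, 30 moved by more than the spread between replicates.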
